A study of Mus musculus with 8 samples.

Results

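The genes described here build and load the photoreceptor cilium: 36 mouse genes for intraflagellar transport, the BBSome, the transition zone and the carriage of lipidated proteins. They were chosen by symbol, with the condition that a gene averaged at least 1 FPKM (fragments counted on a gene, scaled by the length of its model and by the counted fragments of the library) over the 8 libraries. All 36 were among the 24860 genes of the table and met that condition, so none was left out. The lowest member was Bbs12 at 1.51 FPKM, followed by Rpgrip1l at 2.28 FPKM. In total 12858 genes met the same condition and were tested.

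RNA was sequenced from mouse retina in 8 libraries, whose labels give retinal ganglion cells as the cell type. The 4 AAV2-shCX36 libraries are labelled for an adeno-associated virus carrying a short hairpin RNA against connexin 36, the gap junction protein of retinal neurons encoded by Gjd2. The 4 AAV2-scramble libraries are labelled for the virus with a scrambled hairpin, so both groups carry a virus and a hairpin. The labels give no strain, age, sex, injury, vector promoter or time after injection, and they do not say how many mice went into a library.

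The outer segment of a rod or cone is a modified primary cilium, joined to the cell body by a narrow connecting cilium that corresponds to the transition zone of other cilia. Intraflagellar transport moves cargo along its microtubules, the B complex serving outward and the A complex inward movement. The BBSome is a coat-like complex that carries membrane proteins with these trains, and UNC119 and PDE6D are soluble carriers that hide the lipid tails of phototransduction proteins until the GTPase ARL3 releases them in the cilium. The same complexes build primary cilia in many other cells, and mutations in many of these genes cause retinal degeneration.

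The libraries came from tissue that held photoreceptor as well as ganglion cell transcripts. Depth was roughly estimated at 36100000 to 38800000 counted fragments per library. At that depth 1 FPKM stands for about 36.1 to 38.8 fragments per kilobase. Gjd2 averaged 15.6 ± 1.48 FPKM in AAV2-shCX36 and 27.5 ± 11.3 FPKM in AAV2-scramble (SD, n = 4 each; log2 difference -0.70 ± 0.25 SE, limma adjusted p = 0.148; two-sided exact permutation p = 0.0286, the smallest that 4 against 4 allow). AAV2-scramble 1 to 4 had 38.7, 35.9, 17.4 and 18.2 FPKM of Gjd2. Controls 3 and 4 thus lay close above the highest AAV2-shCX36 library, at 17.0 FPKM. The 12 ganglion cell markers summed to 2900 to 3124 FPKM in AAV2-shCX36 and 1799 to 3112 FPKM in AAV2-scramble. The 20 rod markers summed to 2045 to 2713 FPKM in AAV2-shCX36 and 3092 to 4412 FPKM in AAV2-scramble, and 15 of the 20 were called lower. The 13 cone markers summed to 2134 to 3145 FPKM in AAV2-shCX36 and 3620 to 5191 FPKM in AAV2-scramble, and 4 were called lower. All 14 genes of an interferon response list were called higher, with a median log2 difference of 2.86 and sums of 1014 to 1761 FPKM in AAV2-shCX36 and 123 to 338 FPKM in AAV2-scramble. AAV2-scramble 1 and 2 stood apart, with the oligodendrocyte markers reaching 206 FPKM against a range of 12.4 to 15.3 FPKM in AAV2-shCX36, and lens markers reached 323 FPKM in AAV2-shCX36 against at most 15.4 FPKM in AAV2-scramble. The labels give no batch.

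Most cilium genes had similar levels in both groups, and the differences past the threshold were falls in AAV2-shCX36. Unc119, a carrier of acylated proteins such as rod transducin, Bbs4, a BBSome subunit, and Lca5, whose protein lebercilin binds intraflagellar transport proteins at the connecting cilium, fell at a limma adjusted p under 0.05. These 3 of 36 members are 8.33%, where 2.52% of all 12858 genes were called lower. No member was called higher, against 2.24% of all genes, and at an unadjusted p under 0.05 no member was higher, against 12.3% of all genes, and 10 were lower, which is 27.8% against 10.3% of all genes. In 8 members, or 22.2%, every AAV2-shCX36 library lay below every AAV2-scramble library, against 7.05% of all genes, and in none did every AAV2-shCX36 library lie above the controls, against 8.85% of all genes. Of the members 24 were lower in AAV2-shCX36, where 47.6% of all genes were. The median log2 difference of the members was -0.08, and that of all genes was 0.01. These shares describe the list and carry no test.

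**Figure D1:**
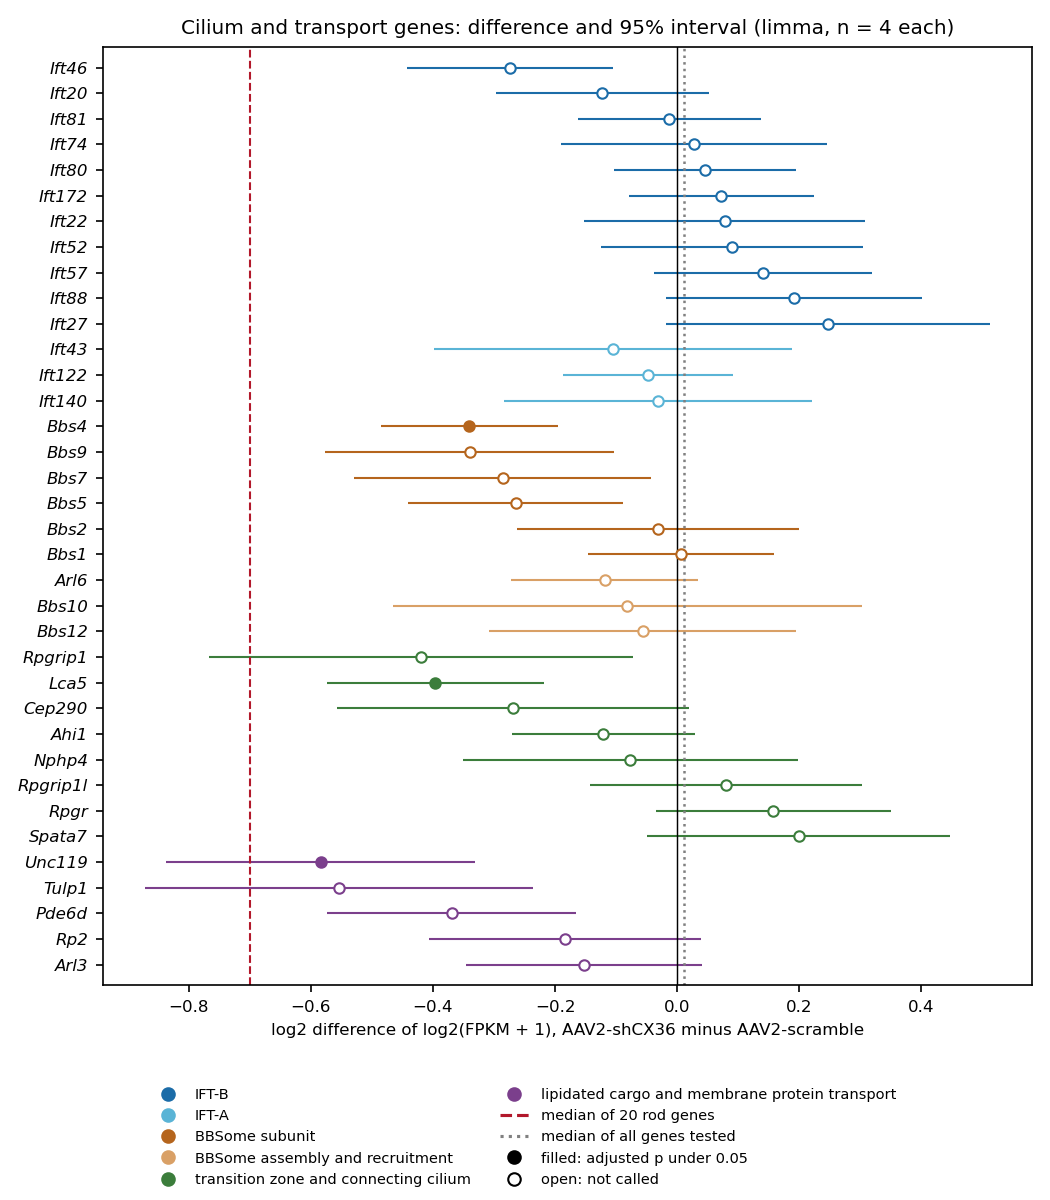
Each row is a cilium gene, coloured by role group, with its log2 difference (AAV2-shCX36 minus AAV2-scramble, on log2(FPKM + 1)) and 95% interval from limma with n = 4 each. Filled points mark the 3 genes called, Unc119, Bbs4 and Lca5, the dashed line the median of 20 rod genes at -0.70 and the dotted line the median of all genes at 0.01.

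The calls rested on few libraries and on the settings of the fit. With no filter on low values Bbs4 alone was called (limma adjusted p = 0.0641 for Unc119 and 0.0509 for Lca5), and with the replicate number as a block no member was (limma adjusted p = 0.0822 for Unc119, 0.109 for Bbs4 and 0.103 for Lca5). Without AAV2-shCX36 replicate 2, AAV2-shCX36 replicate 3 or AAV2-scramble replicate 3 no member was called, without AAV2-shCX36 replicate 1 Bbs4 alone was called, and without AAV2-scramble replicate 1 the 3 genes were joined by Bbs9 and Tulp1. Lca5 also lost its call without AAV2-scramble replicate 2 and without AAV2-shCX36 replicate 4, where Pde6d passed. In the alternatives chosen after seeing the data, 6 members were called lower without AAV2-scramble 1 and 2, the libraries with oligodendrocyte transcript, namely the 3 genes with Bbs5, Bbs9 and Tulp1. Without AAV2-scramble 3 and 4 the 3 genes were called lower and Ift27 higher, and without AAV2-shCX36 1 and 4, the libraries with most lens transcript, no member was called.

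Genes for the carriage of lipidated and membrane proteins showed the largest differences of the role groups. Of the 5, all were lower in AAV2-shCX36, where 47.6% of all genes were, and the median log2 difference was -0.37. The 1 gene called is 20% of them, against 2.52% of all genes called lower. Unc119 (GRCm38 chromosome 11, 78343482 to 78349164, plus strand, protein-coding) was the most abundant member. Its AAV2-shCX36 libraries 1 to 4 had 196, 162, 208 and 229 FPKM, and its AAV2-scramble libraries 1 to 4 had 262, 316, 317 and 295 FPKM. The groups did not overlap, with AAV2-shCX36 2 the lowest library. Unc119 averaged 199 ± 28 FPKM in AAV2-shCX36, which was 66.9% of the 297 ± 25.9 FPKM in AAV2-scramble (SD, n = 4 each; log2 difference -0.58 ± 0.11 SE, limma adjusted p = 0.0236). Its call also ended without AAV2-shCX36 replicate 1, 2 or 3 or AAV2-scramble replicate 3, at adjusted p of up to 0.0750.

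Tulp1 and Pde6d had gaps between the groups as well, and both stayed just short of the threshold. Tulp1 encodes a tubby-like protein of photoreceptors needed for rhodopsin transport. It had 182, 152, 205 and 206 FPKM in AAV2-shCX36 1 to 4, against 214, 286, 327 and 273 FPKM in AAV2-scramble 1 to 4 (log2 difference -0.55 ± 0.14 SE, limma adjusted p = 0.0605). Its lowest control, AAV2-scramble 1, lay close above the highest AAV2-shCX36 library. Pde6d, the carrier of prenylated proteins such as the rod phosphodiesterase, had 41.2, 38.5, 47.6 and 51.0 FPKM in AAV2-shCX36 1 to 4, against 57.7, 53.6, 58.8 and 60.2 FPKM in AAV2-scramble 1 to 4 (log2 difference -0.37 ± 0.09 SE, limma adjusted p = 0.0531). AAV2-shCX36 1 and 2 were its low libraries, and the control values lay close together.

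The GTPase that unloads both carriers differed less. Arl3 had 83.7, 78.0, 87.7 and 96.3 FPKM in AAV2-shCX36 1 to 4, against 92.7, 86.7, 98.2 and 107 FPKM in AAV2-scramble 1 to 4. These ranges overlapped, and the log2 difference of -0.15 had a 95% interval of -0.35 to 0.04 (limma adjusted p = 0.320). Rp2, whose protein switches ARL3 off, was a low transcript at 2.74 ± 0.290 FPKM in AAV2-shCX36 and 3.25 ± 0.350 FPKM in AAV2-scramble (limma adjusted p = 0.302).

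**Figure D2:**
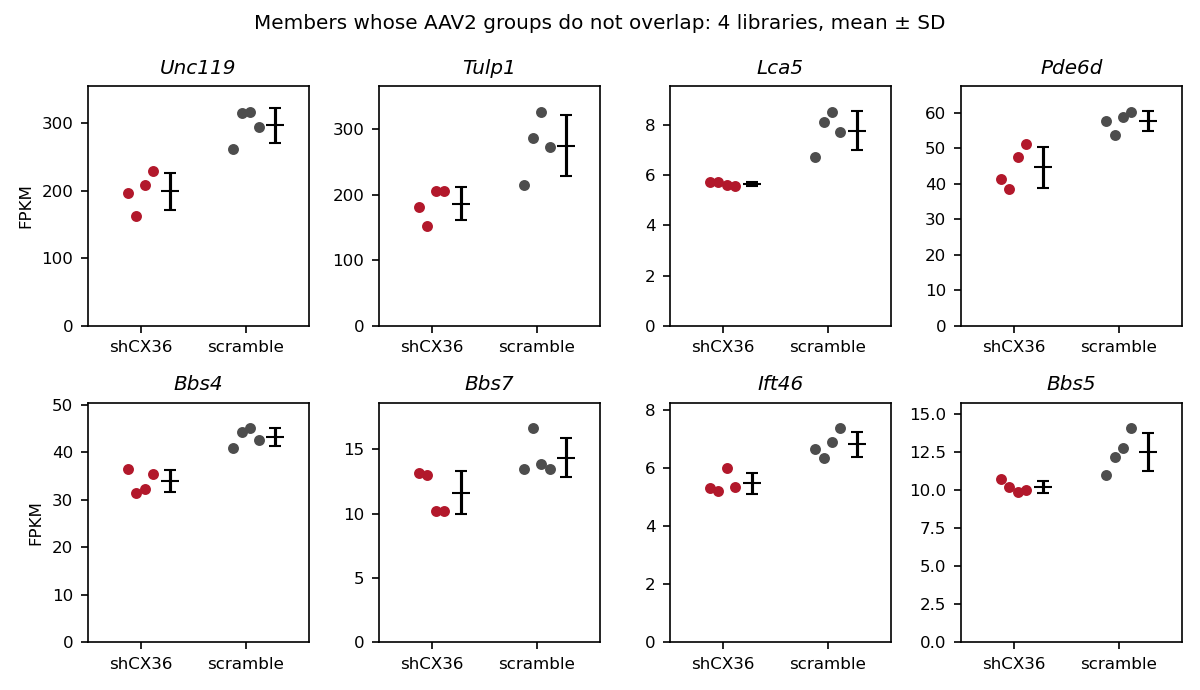
FPKM of each library for the 8 cilium genes whose groups did not overlap, AAV2-shCX36 in red and AAV2-scramble in grey, with the mean ± SD of 4 libraries beside the points. In each panel every AAV2-shCX36 library lies below every AAV2-scramble library. Relative to the level of the gene, the gap is widest in Lca5, Unc119 and Bbs4 and narrowest in Bbs5, Bbs7 and Tulp1.

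BBSome subunits were unequal. Of the 6 subunits among the members, 5 were lower in AAV2-shCX36, where 47.6% of all genes were, with a median log2 difference of -0.28. The 1 subunit called is 16.7% of them, against 2.52% of all genes called lower. Bbs4 (chromosome 9, 59321990 to 59353508, minus strand, protein-coding) had 36.4, 31.5, 32.3 and 35.5 FPKM in AAV2-shCX36 1 to 4, against 40.8, 44.2, 45.02 and 42.6 FPKM in AAV2-scramble 1 to 4. Both groups were tight and separate, at 33.9 ± 2.40 FPKM in AAV2-shCX36 and 43.2 ± 1.87 FPKM in AAV2-scramble (SD, n = 4 each; log2 difference -0.34 ± 0.06 SE, limma adjusted p = 0.0226). Its exons share 194 bases with Adpgk on the other strand, a gene with 7.19 FPKM in AAV2-shCX36 and 6.999 FPKM in AAV2-scramble (log2 difference 0.04).

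Bbs5, Bbs7 and Bbs9 were also lower without reaching the threshold. Bbs5, a subunit that binds phosphoinositides, had 10.7, 10.2, 9.88 and 10.0 FPKM in AAV2-shCX36 1 to 4, against 11.0, 12.2, 12.8 and 14.1 FPKM in AAV2-scramble 1 to 4 (log2 difference -0.26 ± 0.08 SE, limma adjusted p = 0.0924). Bbs7, a beta-propeller subunit, had 13.2, 13.0, 10.2 and 10.2 FPKM in AAV2-shCX36 1 to 4, against 13.5, 16.6, 13.9 and 13.5 FPKM in AAV2-scramble 1 to 4 (log2 difference -0.29 ± 0.11 SE, limma adjusted p = 0.162). In both genes the gap between the groups was small beside the spread within them. Bbs9 had 8.98, 8.73, 7.67 and 8.85 FPKM in AAV2-shCX36 1 to 4, against 8.79, 11.8, 12.1 and 11.9 FPKM in AAV2-scramble 1 to 4 (log2 difference -0.34 ± 0.10 SE, limma adjusted p = 0.104). AAV2-scramble 1 alone brought its groups into overlap.

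Bbs1 and Bbs2 had almost equal group means. Bbs1, the subunit that binds the GTPase ARL6, had 15.7, 14.95, 16.4 and 14.7 FPKM in AAV2-shCX36 1 to 4, against 14.3, 15.5, 16.9 and 14.8 FPKM in AAV2-scramble 1 to 4. Its log2 difference was 0.01 with a 95% interval of -0.15 to 0.16, and it turned to the other side of 0 under median-of-ratios scaling. Bbs2 averaged 22.8 ± 1.76 FPKM in AAV2-shCX36 and 23.4 ± 3.53 FPKM in AAV2-scramble (log2 difference -0.03, 95% interval -0.26 to 0.20). The remaining subunits of the complex, Ttc8 and Bbip1, come from a wider list of 60 cilium genes. Ttc8 (BBS8) averaged 19.1 ± 1.84 FPKM in AAV2-shCX36 and 23.1 ± 2.13 FPKM in AAV2-scramble, and Bbip1 averaged 8.20 ± 0.327 FPKM in AAV2-shCX36 and 9.71 ± 0.850 FPKM in AAV2-scramble (log2 differences -0.26 and -0.22, limma adjusted p = 0.140 and 0.133). Of the 8 subunits, 7 were lower in AAV2-shCX36, where 47.6% of all genes were. At an unadjusted p under 0.05, 6 of the 8 (75%) were lower, against 10.3% of all genes, and 1 (12.5%) was called lower, against 2.52% of all genes.

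**Figure D3:**
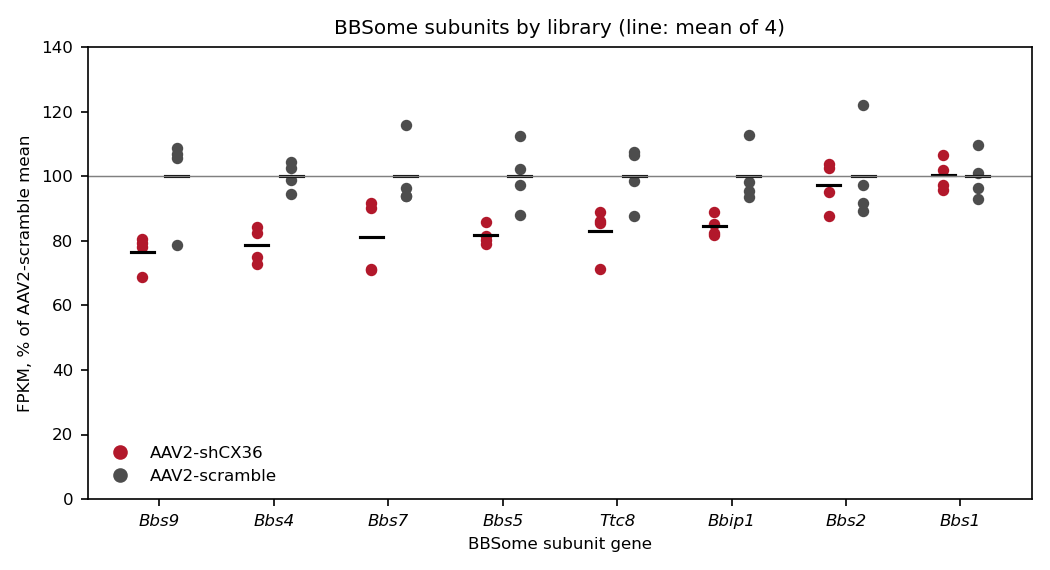
FPKM of the 8 BBSome subunit genes in each library as a percentage of the AAV2-scramble mean of that gene, AAV2-shCX36 in red and AAV2-scramble in grey, with a line at the mean of 4 libraries. The AAV2-shCX36 means lie between 76.7% for Bbs9 and 84.5% for Bbip1 in 6 genes, and at 97.2% and 100.3% for Bbs2 and Bbs1.

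Genes for BBSome assembly and membrane recruitment had no calls. Arl6 (BBS3), the GTPase that recruits the complex to membranes, was the most abundant of these 3, with 36.8, 34.8, 37.1 and 33.8 FPKM in AAV2-shCX36 1 to 4, against 36.5, 39.9, 42.7 and 36.2 FPKM in AAV2-scramble 1 to 4. The groups overlapped (log2 difference -0.12, 95% interval -0.27 to 0.03). The chaperonin-like genes Bbs10 and Bbs12 were low, at 2.46 ± 0.428 and 1.46 ± 0.223 FPKM in AAV2-shCX36 against 2.71 ± 0.815 and 1.56 ± 0.204 FPKM in AAV2-scramble, and the interval of Bbs10 was the widest of the members, from -0.47 to 0.30.

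Of the 8 genes of the transition zone and connecting cilium, 5 were lower and 3 higher in AAV2-shCX36, against 47.6% of all genes lower. Lca5 was called, which is 12.5%, against 2.52% of all genes called lower. Lca5 (chromosome 9, 83390293 to 83441127, minus strand, protein-coding) had 5.71, 5.72, 5.60 and 5.56 FPKM in AAV2-shCX36 1 to 4, against 6.72, 8.13, 8.52 and 7.72 FPKM in AAV2-scramble 1 to 4. The AAV2-shCX36 libraries were nearly identical and lay below every control (log2 difference -0.40 ± 0.08 SE, limma adjusted p = 0.0272). Lca5 was the called member that lost its call most often, in 6 of the 8 omissions of a single library, with adjusted p of up to 0.0836.

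Rpgrip1, which anchors RPGR at the connecting cilium, was the most abundant gene of this group and the most variable among the controls. It had 34.4, 31.9, 43.3 and 35.1 FPKM in AAV2-shCX36 1 to 4, against 38.7, 63.8, 52.1 and 42.7 FPKM in AAV2-scramble 1 to 4. AAV2-shCX36 3 lay above the lower controls 1 and 4, so the groups overlapped (log2 difference -0.42 ± 0.15 SE, limma adjusted p = 0.154). Its exons share 1057 bases with Supt16 on the other strand, a gene with 21.5 FPKM in AAV2-shCX36 and 21.9 FPKM in AAV2-scramble. Cep290, which encodes a large structural protein of the transition zone, averaged 5.16 ± 0.774 FPKM in AAV2-shCX36 and 6.43 ± 1.13 FPKM in AAV2-scramble (log2 difference -0.27, limma adjusted p = 0.252), and shares 881 exon bases with 4930430F08Rik on the other strand.

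The 3 genes on the other side of 0 were Spata7, Rpgr and Rpgrip1l. Spata7, which partners with RPGRIP1 in the photoreceptor connecting cilium, had 5.85, 5.20, 6.72 and 5.52 FPKM in AAV2-shCX36 1 to 4, against 4.43, 4.43, 6.08 and 4.89 FPKM in AAV2-scramble 1 to 4 (log2 difference 0.20 ± 0.11 SE, limma adjusted p = 0.314). The high control, AAV2-scramble 3, lay within the AAV2-shCX36 range. Rpgr averaged 3.63 ± 0.356 FPKM in AAV2-shCX36 and 3.14 ± 0.112 FPKM in AAV2-scramble, and Rpgrip1l averaged 2.38 ± 0.275 FPKM in AAV2-shCX36 and 2.19 ± 0.213 FPKM in AAV2-scramble (log2 differences 0.16 and 0.08, limma adjusted p = 0.307 and 0.672). Ahi1 and Nphp4, both transition zone genes, had log2 differences of -0.12 and -0.08 with intervals that included 0.

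Intraflagellar transport genes showed little difference between the groups. Of 11 B complex genes 8 were higher and 3 lower in AAV2-shCX36, where 47.6% of all genes were lower. None was called, and the median log2 difference was 0.07. Ift46, whose protein carries axonemal dynein cargo in green algae, was the exception in its gap between the groups. It had 5.31, 5.19, 5.99 and 5.36 FPKM in AAV2-shCX36 1 to 4, against 6.66, 6.33, 6.89 and 7.36 FPKM in AAV2-scramble 1 to 4. The groups did not overlap, and the log2 difference was -0.27 ± 0.07 SE (limma adjusted p = 0.0747).

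Ift27, a small GTPase subunit that links the trains to BBSome exit, had the highest difference of the members. Its AAV2-shCX36 libraries 1 to 4 had 14.5, 16.7, 16.0 and 18.5 FPKM, and its AAV2-scramble libraries 1 to 4 had 13.3, 11.0, 14.3 and 16.4 FPKM. AAV2-scramble 4 lay within the AAV2-shCX36 range, and the log2 difference of 0.25 ± 0.12 SE did not pass (limma adjusted p = 0.250). Ift20, which also works at the Golgi and was the most abundant gene of the B complex, had 35.7, 32.1, 35.4 and 38.5 FPKM in AAV2-shCX36 1 to 4, against 41.7, 38.1, 40.3 and 34.5 FPKM in AAV2-scramble 1 to 4 (log2 difference -0.12, limma adjusted p = 0.378). The core subunits Ift88, Ift52, Ift81 and Ift74 had log2 differences of 0.19, 0.09, -0.01 and 0.03, and Ift57, Ift22, Ift172 and Ift80 of 0.14, 0.08, 0.07 and 0.05.

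The 3 A complex genes were all slightly lower, where 47.6% of all genes were lower, none was called, and the median was -0.05. Ift43 had 18.5, 12.2, 17.3 and 15.4 FPKM in AAV2-shCX36 1 to 4, against 16.0, 19.9, 17.1 and 15.1 FPKM in AAV2-scramble 1 to 4, with groups that overlapped widely. Ift122 averaged 8.65 ± 0.389 FPKM in AAV2-shCX36 and 8.97 ± 0.318 FPKM in AAV2-scramble, and Ift140 averaged 3.65 ± 0.207 FPKM in AAV2-shCX36 and 3.79 ± 0.693 FPKM in AAV2-scramble (log2 differences -0.05 and -0.03).

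**Figure D4:**
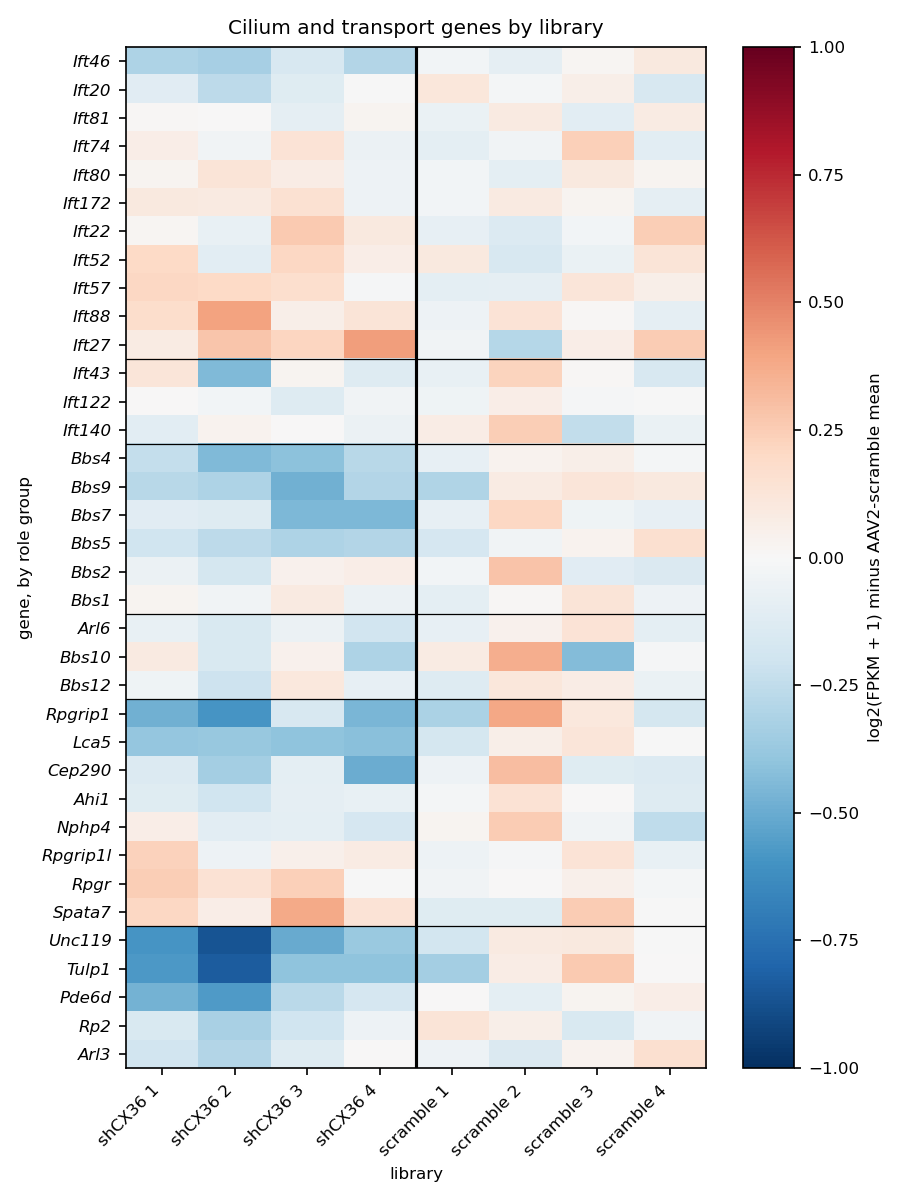
Colour gives log2(FPKM + 1) of each cilium gene (rows, by role group) in each library (columns) minus the AAV2-scramble mean of that gene, blue for lower and red for higher. Unc119 and Tulp1 are the darkest blue, in AAV2-shCX36 2 above all, while most B complex genes are pale, and AAV2-scramble 2 has the highest Rpgrip1.

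Rod and cone markers were lower in AAV2-shCX36 as well. The 20 rod markers had log2 differences from -1.05 to -0.11 with a median of -0.70, and the 13 cone markers from -0.94 to -0.05 with a median of -0.60. The cilium genes ran from -0.58 for Unc119 to 0.25 for Ift27, so the lowest of them lay within the ranges of both marker lists. In 27 of the 36 members the 95% interval lay within 0.5 of 0 on both sides. In bulk tissue, fewer cells of a type and less RNA per cell cannot be told apart, and the part of the lower rod and cone transcripts, or of the higher interferon response genes, in the lower cilium genes was not tested. Müller glia markers summed to 387 to 618 FPKM in AAV2-shCX36 and 640 to 1063 FPKM in AAV2-scramble, and microglia markers to 274 to 430 FPKM in AAV2-shCX36 and 228 to 997 FPKM in AAV2-scramble, and their part was not tested either. Markers of the retinal pigment epithelium were near 0, at 3.14 to 5.77 FPKM in AAV2-shCX36 and 2.66 to 3.54 FPKM in AAV2-scramble for 7 genes, and Rpe65 was listed at 0 in 7 of the 8 libraries. The 10 motile cilium genes in the table summed to 9.96 to 11.3 FPKM in AAV2-shCX36 and 8.75 to 10.0 FPKM in AAV2-scramble.

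The low values in AAV2-shCX36 were unevenly spread over its libraries. AAV2-shCX36 2 was the lowest of its group in 17 of the 36 members, or 47.2%, against 30.6% of all genes tested. AAV2-shCX36 4 was the lowest in 12 members, or 33.3%, against 24.4% of all genes. AAV2-shCX36 3 was the lowest in 5 (13.9% against 26.3%) and AAV2-shCX36 1 in 2 (5.56% against 18.8%). Among the controls AAV2-scramble 1 was the lowest in 13 members, or 36.1%, against 14.6% of all genes.

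In the wider list of 60 cilium genes, all tested, 2 were called lower and none higher, which is 3.33% against 2.52% of all genes lower. At an unadjusted p under 0.05, 16 (26.7%) were lower, against 10.3% of all genes, and 3 (5%) higher, against 12.3%. In 10 (16.7%) every AAV2-shCX36 library lay below every control, against 7.05% of all genes, and in 1 above, against 8.85%. The 2 called genes encode microtubule proteins of the photoreceptor axoneme. Rp1l1 had 28.3, 23.4, 31.8 and 30.5 FPKM in AAV2-shCX36 1 to 4, against 38.9, 53.6, 51.4 and 49.2 FPKM in AAV2-scramble 1 to 4 (log2 difference -0.74 ± 0.12 SE, limma adjusted p = 0.0140). Rp1, which is also among the 20 rod markers, had 17.0, 13.9, 17.9 and 15.8 FPKM in AAV2-shCX36 1 to 4, against 21.6, 26.2, 32.5 and 31.5 FPKM in AAV2-scramble 1 to 4 (log2 difference -0.74 ± 0.13 SE, limma adjusted p = 0.0181). Neither gene had overlapping groups. Next by p-value were the basal body gene Cep164 and the ciliary kinase gene Mak, with log2 differences of -0.37 and -0.35 (limma adjusted p = 0.0907 and 0.0988). The count of 2 was 4 without AAV2-scramble replicate 1 and 1 without AAV2-shCX36 replicate 1 or 2 or AAV2-scramble replicate 3.

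Of the 13 basal body and axoneme genes 12 were lower, where 47.6% of all genes were, with a median log2 difference of -0.15. These 13 include the called Rp1l1 and Rp1, of which Rp1 is also a rod marker, so position alone was not compared. Of the 18 other transport and motor genes 7 were lower (median 0.03), and of the 16 other transition zone genes 6 (median 0.04). The kinesin-2 subunits Kif3a and Kifap3 had log2 differences of 0.15 and 0.25, and Kif3b of -0.17, none past the threshold (limma adjusted p = 0.179, 0.290 and 0.193). Tmem231, of the tectonic complex, was the gene of the wider list whose AAV2-shCX36 libraries all lay above the controls, at 9.003 ± 0.335 FPKM against 7.21 ± 1.34 FPKM in AAV2-scramble (limma adjusted p = 0.164).

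The promoters of the members were searched for short motifs, from 250 bases before to 50 bases after the start, in RefSeq windows of GRCm38.p6 available for 33 of the 36 genes. The motif GTTGCC is a core of the X-box bound by RFX factors, which regulate ciliary genes, TAATCC is the site of the photoreceptor factor CRX, and TGCTGA is a core of the site of the rod factor NRL. Both strands were searched, and the motifs do not overlap one another. GTTGCC occurred in 12 of the 33 genes, or 36.4%, against 14.1% of all genes with such windows. Of the 8 members whose groups did not overlap 4 held it, and of the other 25 members 8 held it. TAATCC occurred in 3 members (Bbs1, Rpgrip1 and Unc119), or 9.09% against 8.14% of all genes, and TGCTGA in 4 (Ift140, Nphp4, Rpgrip1 and Unc119), or 12.1% against 21.7%. The matches of Unc119, Rpgrip1 and Nphp4 lie inside the gene, in windows of starts past its first base in the GENCODE annotation. Starts of some other members, such as Bbs7 and Ift57, also lie past that base. A match is a run of letters and does not show that a factor binds there.

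The 250 bases before the start are shown for 2 abundant members with a CRX or NRL motif and for 2 members with the RFX motif, Bbs7 with separate groups and Ift57 with overlapping groups. They read 5′ to 3′ on the strand of the gene, with the motifs, on either strand, in capitals. The Unc119 window is that of the start among its 3 that holds the CRX motif, at chr11:78345334-78345583 on the plus strand. This window lies inside the gene, which begins at 78343482, and so is not the one before its first base. Those of the others are chr14:52110653-52110902 (plus strand) for Rpgrip1, chr3:36613390-36613639 (minus strand) for Bbs7 and chr16:49699044-49699293 (plus strand) for Ift57. All of these windows reach into the gene. Rpgrip1 begins at 52110704, so both its motifs lie inside it. Bbs7, on the minus strand, begins at 36613477, and its motif lies before that base. Ift57 begins at 49699233, and the later of its motifs lies inside the gene.
Unc119: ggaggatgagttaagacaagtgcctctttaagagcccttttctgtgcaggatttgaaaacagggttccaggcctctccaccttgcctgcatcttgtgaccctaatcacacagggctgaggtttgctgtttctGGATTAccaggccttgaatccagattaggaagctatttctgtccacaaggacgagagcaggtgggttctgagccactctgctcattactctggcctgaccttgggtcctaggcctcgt
Rpgrip1: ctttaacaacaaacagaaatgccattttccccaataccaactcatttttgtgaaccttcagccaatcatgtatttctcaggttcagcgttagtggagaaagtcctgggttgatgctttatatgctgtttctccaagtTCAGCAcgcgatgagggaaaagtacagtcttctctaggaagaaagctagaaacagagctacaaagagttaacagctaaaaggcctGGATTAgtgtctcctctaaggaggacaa
Bbs7: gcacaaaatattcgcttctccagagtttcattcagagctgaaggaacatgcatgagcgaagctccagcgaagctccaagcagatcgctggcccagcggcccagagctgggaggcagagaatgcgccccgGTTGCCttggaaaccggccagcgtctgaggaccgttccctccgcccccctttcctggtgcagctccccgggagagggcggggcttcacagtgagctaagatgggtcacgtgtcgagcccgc
Ift57: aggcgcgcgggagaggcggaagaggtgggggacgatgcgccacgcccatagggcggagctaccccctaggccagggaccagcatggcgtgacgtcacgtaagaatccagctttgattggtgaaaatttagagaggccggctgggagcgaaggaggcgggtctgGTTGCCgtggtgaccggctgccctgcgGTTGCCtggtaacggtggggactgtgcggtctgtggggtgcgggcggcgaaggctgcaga
Rpgrip1 holds a CRX and an NRL motif in this window, and Ift57 holds the RFX motif 2 times. Unc119 had the lowest log2 difference of the members and Ift57 a positive one of 0.14.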

How the data were processed

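Per the labels' protocols, retinal RNA was purified on QIAGEN RNeasy Micro columns, and an Illumina NovaSeq instrument read both ends of the fragments. The submitters' processing notes name fastp, HISAT2, HTSeq, R 3.2.0 and DESeq2, and the builds GRCm38 and mm10. Annotation release, gene lengths and strand setting are not given in the sources used here. Reads of overlapping genes may therefore be mixed. The authors deposited FPKM values for 24860 genes and 8 libraries, and no count model was run on them. The columns were matched to samples by name, with 0 unmatched columns. Depth was estimated from low values of genes with a single exon, taken as whole multiples of a fragment within 0.05. In the libraries 26.6% to 33.8% of such values were whole at the depth that fitted best. Some would be whole at any depth and most were not whole, so the depth is a rough estimate and no counting interval is given.

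Groups came from the sample titles. For the 12858 genes averaging 1 FPKM or more, log2(FPKM + 1) was fitted in limma 3.58.1 (R 4.3.3) with a trend. A gene was called at an adjusted p under 0.05 (Benjamini-Hochberg, over all genes), and differences are AAV2-shCX36 minus AAV2-scramble. They understate the change of low genes. The mice behind each library are not stated, and the p-values therefore reflect library-to-library spread, which may be technical. The fit was also run on simulated data with independent noise for each gene, a check of the code that does not bear on the calls here. Positions are from the GENCODE annotation of GRCm38. Values in every library are given for members called, members whose groups did not overlap and the most abundant of each role group, and the lowest and highest difference of each role group are named. Other members were added for their role. Members and lists were chosen with earlier results of these data known. Alternatives were other pseudocounts, scalings, filters and variance models, the replicate number as a block, and libraries left out. Python 3.11.15, pandas 2.3.3 and matplotlib 3.10.9 made tables and figures.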

Additional observations from a re-analysis of the deposited data

Results flagged for a closer look

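In 3 of 74 gene and group combinations (36 members and Gjd2, 2 groups each) a library lay far from the other 3 of its group by Dixon's criterion, where chance gives about 1 in 20. Ift57 was at 10.9 FPKM in AAV2-shCX36 4, with the others of that group between 12.5 and 12.8 FPKM. Bbs7 was at 16.6 FPKM in AAV2-scramble 2, with the other controls between 13.5 and 13.9 FPKM. Bbs9 was at 8.79 FPKM in AAV2-scramble 1, with the other controls between 11.8 and 12.1 FPKM, and without AAV2-scramble replicate 1 its log2 difference was -0.44 (limma adjusted p = 0.0211).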

How the results depend on the processing

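None of the 3 called members changed sign in any of the 22 alternatives, and 22 of the 36 members kept their direction in all of them. Another 4 (Bbs12, Rpgr, Rpgrip1l and Rp2) kept it in the 21 in which they were tested, since they did not pass the filter of 5 FPKM. Over all genes, the 288 higher and 324 lower calls became 177 and 134 with no filter on low values, 107 and 57 with the replicate number as a block, and between 101 and 573 higher and 70 and 589 lower with each library left out in turn. Members called lower were 1 (Bbs4) with no filter, 0 with the replicate block and 0 to 5 with each library left out. Of the wider cilium list, 0 were called lower with the replicate block and 1 to 4 with each library left out. The replicate numbers were given no shared animal or batch by the labels. Libraries with the same number had deviations correlated at 0.13, -0.30, 0.23 and -0.27. Pairs with different numbers reached similar values, such as 0.27 for AAV2-shCX36 4 with AAV2-scramble 2 and 0.25 for AAV2-shCX36 2 with AAV2-scramble 4. These values cannot show whether libraries share an animal or a batch, which was not tested. AAV2-shCX36 3 was the library of its group that correlated best with its own number.

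In alternatives chosen after seeing the data, leaving out AAV2-scramble 1 and 2 gave 554 genes higher and 388 lower, and 6 members and 4 genes of the wider list were lower. With those 2 controls left out, Gjd2 had a log2 difference of only -0.19 (limma adjusted p = 0.245). Without AAV2-scramble 3 and 4, 1536 genes were higher and 1905 lower, 1 member and 4 genes of the wider list were higher, 5 of the wider list were lower, the median of the members was -0.16, and Gjd2 had a log2 difference of -1.21 (limma adjusted p = 0.000763). Without AAV2-shCX36 1 and 4, 76 genes were higher and 30 lower, and 0 members and 0 genes of the wider list were called lower. Pde6d passed under quantile normalization, rescaling to TPM and a filter of 5 FPKM, and Tulp1 passed and Lca5 did not under quantile normalization. The cause was not tested. In the main fit, with 4 libraries a group and adjustment over 12858 genes, Pde6d and Tulp1 lay just short of the threshold (limma adjusted p = 0.0531 and 0.0605). Bbs4 was called at a smaller log2 difference of -0.34 with an SE of 0.06, so size alone did not set the calls.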

Other observations

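Ratios of FPKM within a library, chosen after their values were seen and given with no test, show how far members of a complex or pathway diverged. Bbs4 over Bbs1 was 2.32, 2.10, 1.97 and 2.41 in AAV2-shCX36 1 to 4, against 2.85, 2.84, 2.66 and 2.88 in AAV2-scramble 1 to 4. The groups did not overlap, and the controls varied little. Unc119 over Arl3 was 2.34, 2.08, 2.38 and 2.38 in AAV2-shCX36 1 to 4, against 2.82, 3.64, 3.23 and 2.75 in AAV2-scramble 1 to 4. Pde6d over Arl3 was 0.515 ± 0.0257 in AAV2-shCX36 and 0.600 ± 0.0277 in AAV2-scramble (SD, n = 4 each), also without overlap. Tulp1 over Arl3 was 2.15 ± 0.158 in AAV2-shCX36 and 2.87 ± 0.519 in AAV2-scramble, and these ranges overlapped.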
